A study of Mus musculus with 4 samples.

Results

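Interferon-responding neutrophils are described here in leukocytes of transplanted mouse lungs. They were chosen by a rule on measured counts. Of the 24761 cell barcodes in the series, 24291 passed a filter of 200 or more detected genes and no more than 10% of UMIs from mitochondrial genes (UMIs are unique molecular identifiers, each standing for 1 captured transcript). A barcode counted as a neutrophil when S100a8 and S100a9, which encode the subunits of the calcium-binding protein calprotectin, made up at least 1% of its UMIs. It also had to carry at least 1 UMI of Csf3r, the receptor for granulocyte colony-stimulating factor, no more than 2 UMIs of the nonclassical monocyte genes Ace, Adgre4 and Cd300e together, and none of Cd3e or Cd79a. That gave 9313 neutrophils. A neutrophil was called interferon-responding when its UMIs of Ifit1, Ifit3 and Rsad2 summed to at least 5, which held for 357 cells, or 3.83% of neutrophils. Because these 3 genes were read in the same cells as every other gene, the contrast with the remaining 8956 neutrophils is a description and carries no test.

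The cells came from left lungs transplanted between B6 mice, so that donor and recipient were syngeneic. The grafts were stored cold, for 60 min at 4 °C, then held for 45 min at 28 °C, and were taken 2 h after reperfusion. Resolvin D1 (RvD1, a lipid mediator derived from docosahexaenoic acid, 200 ng in 200 µL of 1% ethanol) or vehicle was given by vein just before surgery, to the recipient by the sample protocol but to the graft by the series description, and these accounts were not reconciled. CD45+ leukocytes of donor and of recipient origin were sequenced as separate libraries, giving 4 groups (donor or recipient cells, with vehicle or with RvD1) of 1 library each, with 2 lungs pooled per library. The sources used here do not say how donor and recipient cells were separated, whether their libraries share lungs, or the age and sex of the mice. All 4 groups therefore share the ischaemia, the surgery and the strain, and no group was left without transplantation. There is no replicate, so no p-value is given, and every interval (95%) covers counting error only.

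Type I interferons bind the IFNAR1 and IFNAR2 receptor chains and act through the kinases JAK1 and TYK2 on a complex of transcription factors that includes IRF9. The complex binds a short promoter element, the interferon-stimulated response element, and switches on genes for antiviral proteins, RNA and DNA sensors and antigen presentation. Neutrophils are short-lived granulocytes that enter a reperfused lung early, and a minority with high interferon-induced transcripts is commonly seen among mouse neutrophils.

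The libraries held 5195 to 7836 barcodes and 42199775 to 61294707 UMIs. Cell Ranger 6.1.1 was used for both vehicle libraries and Cell Ranger 7.0.1 for both RvD1 libraries, per the file headers, so software version and treatment cannot be told apart. By default the later version counts intronic reads and the earlier does not, and the sources used here do not say which setting was used. Library pairs shared 4 to 15 barcodes, and no barcode was interferon-responding in more than 1 library. Scrublet marked 7 of the 357 cells as doublets, and these were kept in the values below.

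Neutrophils with the interferon-induced transcripts were present in all 4 libraries, and their share of neutrophils was lower in each RvD1 library than in the vehicle library of the same origin. In vehicle donor cells 78 of 1316 neutrophils qualified, a share of 5.93% (exact Clopper-Pearson interval 4.71 to 7.34). In RvD1 donor cells 60 of 1836 qualified, 3.27% (2.50 to 4.19). The vehicle recipient library had 150 of 3231, 4.64% (3.94 to 5.43), and the RvD1 recipient library 69 of 2930, 2.35% (1.84 to 2.97). RvD1 minus vehicle came to -2.66 percentage points in donor cells (Newcombe interval -4.24 to -1.19) and to -2.29 points in recipient cells (-3.21 to -1.38). Recipient minus donor was -1.28 points with vehicle (-2.85 to 0.107) and -0.913 points with RvD1 (-1.95 to 0.0342), and both of these intervals include 0. Neutrophils with at least 2000 UMIs were also thinned to 2000, which left out 9, 31, 2 and 58 cells in the same order. Asking for at least 2 of the 3 genes' UMIs then gave 6.96%, 4.27%, 5.14% and 3.48%. The RvD1 share was the lower one in each origin under each of the 8 definitions plotted below, all of which are shares of neutrophils. As a share of all barcodes that passed the filter, these cells made up 1.38%, 1.18%, 2.53% and 0.905% in the same order. On that scale the donor libraries lay closer together. Neutrophils were 23.3%, 36.1%, 54.6% and 38.4% of those barcodes.

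**Figure D1:**
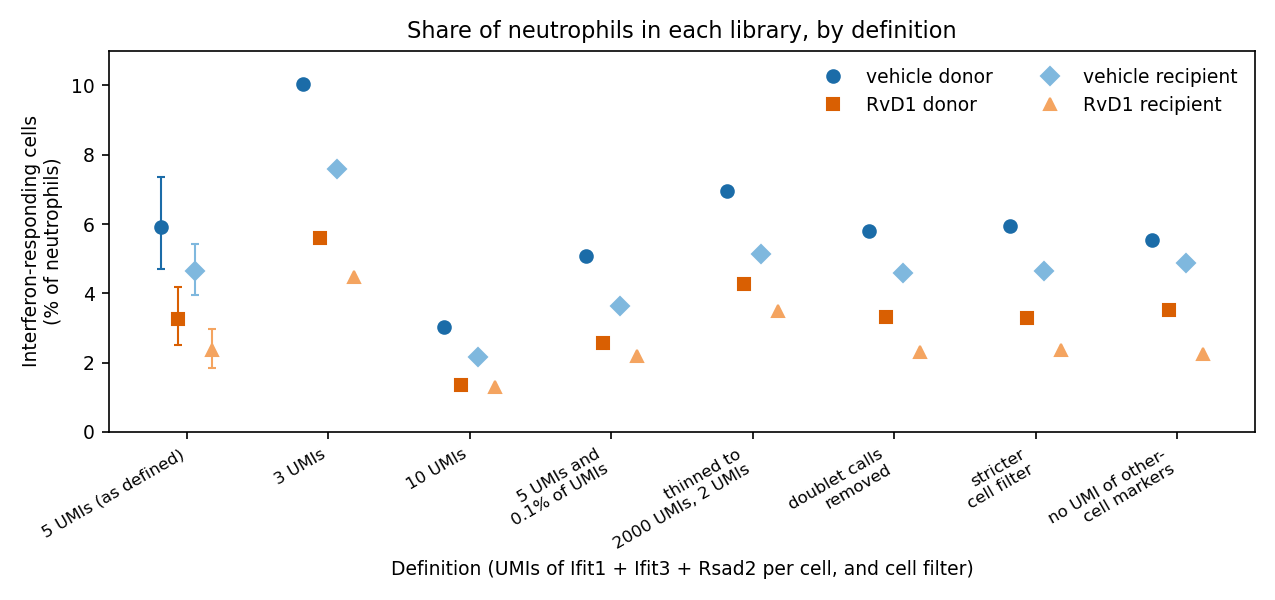
Share of neutrophils that were interferon-responding (y axis, % of the library's neutrophils) in the 4 libraries under 8 definitions (x axis). Each symbol is 1 library, bars on the first definition are exact 95% intervals, and the RvD1 symbols lie below the vehicle symbols of the same origin throughout.

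Markers of neutrophils were present, as the rule on Csf3r, S100a8 and S100a9 required, so these values describe the cells and are no check of them. Sets of 4 values are given from here on in the order donor cells with vehicle, donor cells with RvD1, recipient cells with vehicle, recipient cells with RvD1. Levels are in CPM, the UMIs of a gene scaled to a fixed total per class and library. Csf3r stood at 1477, 1805, 1739 and 1806 CPM in interferon-responding cells, against 1528, 1763, 1696 and 1776 in the other neutrophils. Cxcr2, the receptor that brings neutrophils to CXC chemokines, differed by no more than 0.09 on the log2 scale in any library. The depth of the 2 classes was close as well. Median UMIs per interferon-responding cell were 5552.5, 5553.5, 5508.5 and 5078, against 5352, 5115.5, 5393 and 4927 in the others. S100a8 and S100a9 took 4.45%, 8.39%, 7.99% and 8.35% of UMIs in these cells, and 6.68%, 9.73%, 10.8% and 10.7% in the other neutrophils, lower in all 4 libraries.

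Rsad2 carried most of the definition. It encodes viperin, a radical SAM enzyme that makes an antiviral nucleotide, while Ifit1 and Ifit3 encode proteins with tetratricopeptide repeats that bind foreign RNA or assist in doing so. Of the UMIs of the 3 genes in interferon-responding cells, Rsad2 gave 80.2%, 84.8%, 76.5% and 65.1%. Over all libraries these cells held 4238 Rsad2, 934 Ifit1 and 389 Ifit3 UMIs. Rsad2 stood at 2286, 1768, 1651 and 1891 CPM in them and at 43.3, 28.5, 32.5 and 24.8 CPM in the other neutrophils. Ifit1 stood at 389, 266, 382 and 625 CPM against 6.09, 3.83, 7.06 and 4.68, and Ifit3 at 175, 51.5, 125 and 389 CPM against 2.65, 2.01, 2.34 and 2.17. Ifit3 has a close copy, Ifit3b, so reads shared by the pair make its count uncertain. These differences were fixed by the choice of cells.

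Cells differed in which of the 3 genes they carried. Of the 357, 174 had UMIs of Rsad2 alone, 70 had all 3 genes, and 7 had no Rsad2. Ifit1 was at 0 in 203 cells and Ifit3 in 257. The summed UMIs had a median of 9 and ran from 5 to 146. Rsad2 alone reached 5 UMIs in 303 of the cells, and the other 54 needed Ifit1 or Ifit3 to qualify. At the threshold, 58 cells had a sum of exactly 5 and were included, while 98 had exactly 4 and were not. Most other neutrophils, 7850 or 87.7%, had none of the 3 transcripts.

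The promoters of these genes are shown because they hold the element through which interferon acts. Rsad2 lies on the minus strand of chromosome 12 (26442746 to 26456452), Ifit1 and Ifit3 on the plus strand of chromosome 19 (34640871 to 34650009 and 34583531 to 34588731), in GRCm38 with GENCODE M21. Isg15 (chromosome 4, 156199424 to 156200818, minus strand), a ubiquitin-like modifier, and Ddx60 (chromosome 8, 61928087 to 62038244, plus strand), a helicase that assists RNA sensing, were not used in the rule. The stretches below come from RefSeq (GRCm38.p6), are written 5′ to 3′ on the gene's strand, and end before the RefSeq start site. Capitals mark matches to the core of the element, GAAA followed by any 2 bases and GAAA, on either strand.
Rsad2, chr12:26456498-26456587: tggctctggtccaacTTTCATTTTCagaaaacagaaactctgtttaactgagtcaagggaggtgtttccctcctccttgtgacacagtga
Ifit1, chr19:34640770-34640859: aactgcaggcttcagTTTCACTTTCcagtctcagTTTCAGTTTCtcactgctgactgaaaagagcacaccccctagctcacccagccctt
Ifit3, chr19:34583358-34583447: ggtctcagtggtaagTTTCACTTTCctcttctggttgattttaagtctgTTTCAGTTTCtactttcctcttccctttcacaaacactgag
Isg15, chr4:156200822-156200911: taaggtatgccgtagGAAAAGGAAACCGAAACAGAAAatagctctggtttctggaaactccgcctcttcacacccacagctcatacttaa
Ddx60, chr8:61927997-61928086: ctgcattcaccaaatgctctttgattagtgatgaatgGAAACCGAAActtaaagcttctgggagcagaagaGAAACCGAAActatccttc

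Rsad2 had 1 match, starting 120 bases before the start site, and Ifit1 had 2, at 104 and 85 bases. Ifit3 had 2, at 156 and 122 bases, and Ddx60 2, at 53 and 19 bases. In Isg15, 3 matches overlapped between 78 and 66 bases. The element was not limited to these 5 genes, as the counts over all genes in a later paragraph show.

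Genes beyond the 3 of the rule were higher in the same cells. The comparison was made within each library on summed UMIs, as a log2 ratio of CPM without a pseudocount. It covered 4465 genes, those for which the library totals predicted at least 5 UMIs among the interferon-responding cells of each library. The prediction pooled both classes, so UMIs of the interferon-responding cells themselves helped a gene to pass. That favours genes high in these cells over genes low in them. In vehicle donor cells Cxcl10 passed with 54 UMIs in the interferon-responding cells and 30 in the other neutrophils. Of these, 59 genes (1.32%) were at least 2-fold higher in all 4 libraries, and 3 genes (0.0672%) at least 2-fold lower. The 59 include Rsad2, which chose the cells. Of the other 58, 31 stood in lists of interferon genes and 27 in none. The median log2 ratio over all 4465 genes was -0.05, -0.04, -0.05 and -0.08. Interferon-responding cells held 22.8%, 12.99%, 21.8% and 12.6% of all neutrophil UMIs of these 58 genes, and 6.16%, 3.40%, 5.57% and 2.57% of all neutrophil UMIs. The 58 genes were picked as higher in these cells, so the first shares had to exceed the second.

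Antiviral effectors formed the largest group. Of 41 listed effector genes in the files, 26 were measured deeply enough, and 19 of these were at least 2-fold higher in all 4 libraries. The median log2 ratio of the 26 was 2.27, 2.08, 2.25 and 2.48. Herc6, a ligase that attaches ISG15 to proteins, stood at 310, 149, 330 and 458 CPM against 18.4, 13.4, 20.2 and 22.4 in other neutrophils, log2 ratios of 4.08, 3.47, 4.03 and 4.35. All 4 levels in the interferon-responding cells lay above all 4 in the others. Oasl1, an oligoadenylate synthetase-like protein that restrains translation of Irf7, stood at 369, 369, 371 and 422 CPM against 41.1, 23.6, 32.4 and 19.7. Its counts were spread over many cells, with UMIs in 49 of 78, 37 of 60, 101 of 150 and 41 of 69.

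Schlafen genes, a family with roles in growth control and RNA cleavage, covered a wide range. Slfn5 stood at 564, 472, 499.8 and 654 CPM against 68.0, 29.2, 33.7 and 38.1, log2 ratios of 3.05, 4.01, 3.89 and 4.10. Slfn8 had log2 ratios of 2.87, 2.89, 3.19 and 3.50. Slfn4 was already abundant in other neutrophils, at 311, 334, 233 and 277 CPM, and reached 1496, 1525, 1464 and 2287 CPM in the interferon-responding cells. Slfn1 had the smallest ratios of the 59 genes by its lowest library, 1.35, 1.02, 1.36 and 1.68. Isg15 had smaller ratios than Slfn5 and Slfn8, from 2.42 to 2.94. It stood at 832, 1330.0, 878 and 2205 CPM against 156, 186, 161 and 288. These families contain close copies, and the sources used here do not say how the counting divided shared reads.

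Some genes of the effector list stayed below 2-fold in at least 1 library. Ifitm1, a membrane protein that blocks viral entry, had log2 ratios of 0.02, -0.76, -0.02 and -0.06, although its level was 690 to 1320 CPM in the interferon-responding cells. Ifitm3, its close relative, was higher by 0.72, 0.62, 1.02 and 1.82. Ifitm6 had ratios below 0 in all 4 libraries, -1.69, -0.29, -0.39 and -0.17. Samhd1, which degrades deoxynucleotides, gave 0.56, 0.48, 0.58 and 0.89.

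Most of the measured receptors that sense foreign or misplaced nucleic acid were higher as well. Of 22 sensor genes, 8 were measured deeply enough and 5 of these were at least 2-fold higher in all 4 libraries, with medians of 2.23, 2.40, 2.89 and 2.86 over the 8. Ifih1 encodes MDA5, which detects long double-stranded RNA, and it stood at 460, 226, 361 and 386 CPM against 31.8, 19.3, 33.1 and 27.7. Ddx58 encodes RIG-I, which detects RNA with a 5′ triphosphate, and had log2 ratios of 2.78, 2.83, 3.07 and 3.03. Ifi204 and Ifi207 belong to the HIN-200 family of DNA-binding proteins and gave 2.61, 2.40, 2.82 and 3.35, and 2.03, 2.63, 3.13 and 3.73. Eif2ak2, the kinase PKR that halts translation on double-stranded RNA, gave 2.44, 2.39, 2.97 and 2.69. Aim2, another of the 8 but not of the 5, gave 0.14, -0.22, 0.36 and -0.32 from 316 UMIs in these cells.

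Within the signalling pathway, 3 transcription factors were higher, while the kinases and receptors lay below the 2-fold limit. Of 12 signalling genes 11 were measured deeply enough, and 3 were at least 2-fold higher in all 4 libraries, Irf7 and Irf9 among them. Irf7, the regulator that amplifies interferon production, stood at 187, 114, 176 and 324 CPM against 30.6, 28.5, 25.2 and 29.9. Irf9, which gives the interferon-activated complex its DNA specificity, had log2 ratios of 1.65, 1.87, 1.35 and 1.52. The kinases Jak1 (-0.05, 0.64, 0.15 and 0.09), Jak2 (-0.08, -0.01, 0.07 and 0.07) and Tyk2 (-0.24, -0.78, -0.05 and 0.05) were below 2-fold in each library, and Tyk2 rested on 28 UMIs in interferon-responding cells. Of 5 receptor genes measured, none was 2-fold different. Ifnar1 gave -0.43, -0.15, 0.09 and -0.90, and Ifnar2 gave -0.55, -0.28, -0.10 and -0.22.

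The feedback genes gave a mixed picture. Nmi, an adaptor of STAT signalling, was higher by 2.49, 1.03, 2.34 and 2.25. Usp25, a deubiquitinase, gave 1.46, 0.87, 1.48 and 1.60. Cd274, which encodes the checkpoint ligand PD-L1, was higher in RvD1 donor and vehicle recipient cells (1.31 and 1.37) and less so in vehicle donor and RvD1 recipient cells (0.54 and 0.14). Socs3, an inhibitor of cytokine receptors, gave -0.14, -0.07, 0.39 and -0.29.

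Genes with too few UMIs for the count above often had large ratios. They are named here after their values were seen. Usp18, which removes ISG15 and blocks the interferon receptor, had 376 UMIs in interferon-responding cells over all libraries and log2 ratios of 4.28, 4.34, 4.49 and 4.73. Cmpk2, a mitochondrial nucleotide kinase encoded beside Rsad2, had 354 UMIs and ratios of 4.49, 4.31, 5.12 and 5.51. Stat2, a transcription factor of the same complex as Irf9, had 198 UMIs and ratios of 3.21, 2.54, 3.14 and 3.05. Of 17 guanylate-binding and immunity-related GTPase genes, enzymes that attack vacuoles of intracellular microbes, Gbp2 alone passed the depth limit, with 1.85, 0.89, 2.00 and 3.004, although 1 cell gave 50.9% of its UMIs in RvD1 recipient cells. Irgm1, below the limit, gave 3.23, 3.48, 3.56 and 3.60 from 366 UMIs. Genes for Mx1, Mx2 and Cxcl11 were not analysed here.

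**Figure D2:**
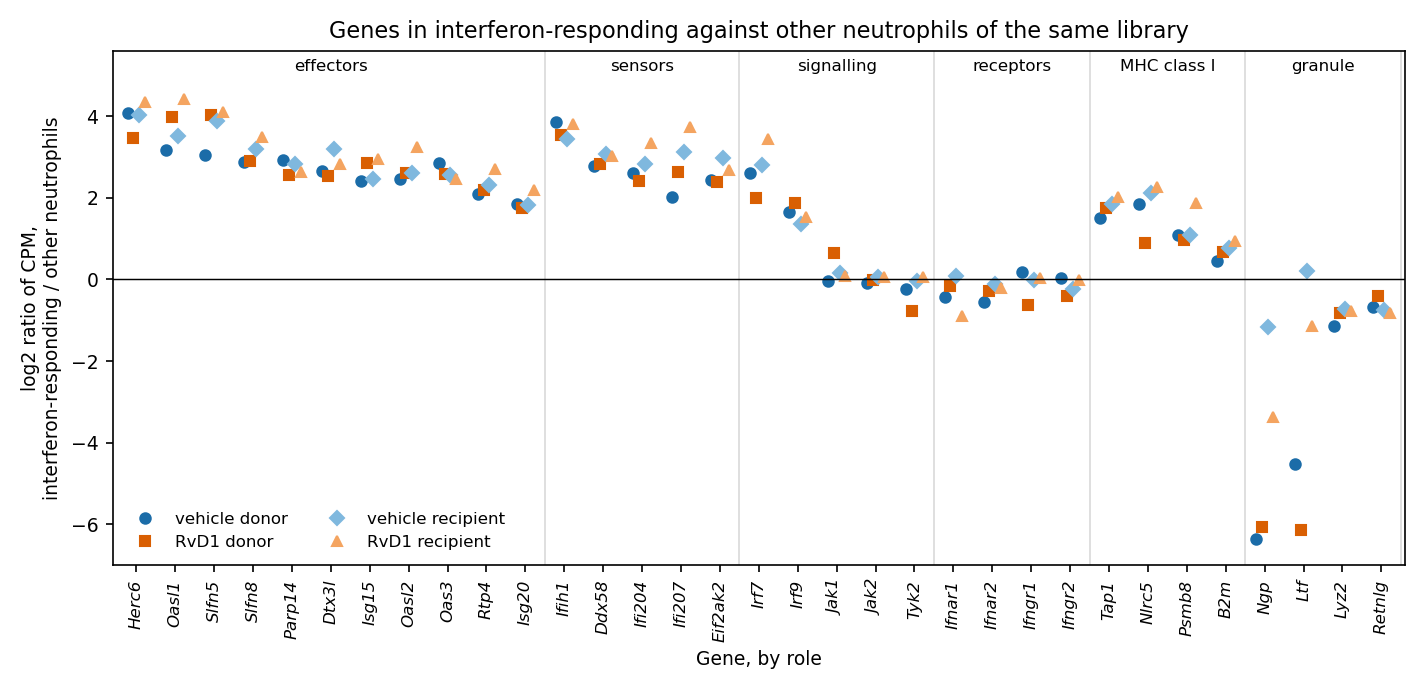
Log2 ratio of CPM between interferon-responding and other neutrophils of the same library (y axis) for genes grouped by role (x axis), 1 symbol per library. The plotted effector and sensor genes lie above 0 in all 4 libraries (Herc6 between 3.47 and 4.35), receptors lie nearer to 0, and granule genes lie mostly below it.

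Antigen presentation by MHC class I was higher by a smaller amount. Of 16 genes 13 were measured, 12 had ratios above 0 in all 4 libraries, against 414 of all 4465 genes (9.27%), and 2 (Tap1 and H2-T22) were at least 2-fold higher in each. The medians were 0.71, 0.88, 0.81 and 1.00. Tap1, a subunit of the peptide transporter, gave 1.49, 1.75, 1.84 and 2.03. Nlrc5, the activator of class I genes, stood at 240, 42.9, 211 and 82.3 CPM against 66.4, 23.3, 48.9 and 17.0. B2m, the light chain, was abundant in both classes and gave 0.46, 0.66, 0.78 and 0.93. Psmb8, an immunoproteasome subunit, gave 1.09, 0.96, 1.09 and 1.87.

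Among the 27 genes outside the lists, several are known from other studies of interferon. Ddx60 stood at 427, 197, 585 and 638 CPM against 44.7, 26.3, 57.4 and 59.2. Rnf213, a large ubiquitin ligase, stood at 899, 535, 983 and 566 CPM against 143, 63.9, 109 and 43.9. Helz2, a helicase and nuclear receptor coactivator, gave log2 ratios of 2.09, 2.36, 2.20 and 2.17. Samd9l, which limits translation in infected cells, gave 1.65, 2.03, 1.87 and 1.92, and Adar, which edits double-stranded RNA, had a mean of 1.70. Trim34a, Trim56 and Trim12a, ubiquitin ligases of the tripartite motif family, had smallest ratios of 2.45, 1.48 and 1.46. Zup1, a peptidase for lysine-63 ubiquitin chains, had a smallest ratio of 1.90. Ankfy1, an endosomal protein, had 1.82, and Tdrd7, which restricts virus replication, had 1.47. Trafd1, Tent5a, Ascc3 and Tor1aip1 completed the named set, with smallest ratios of 1.81, 1.71, 1.71 and 1.55.

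The response element was counted across the promoters of all genes, in the 250 bases before each RefSeq start. Of the 58 higher genes other than Rsad2, 52 matched a promoter, and 12 of these (23.1%) held the core, GAAA, any 2 bases and GAAA, on either strand. The motif was present in 121 of 3508 other described genes (3.45%), in 936 of 27025 genes in the table (3.46%) and in 978 of 32851 promoters (2.98%). A second motif, TTC, any 3 bases and GAA, which reads the same on both strands and is the site for STAT dimers, was present in 3 of the 53 (5.66%) that matched with Rsad2 included, against 7.41% of the other described genes and 8.13% of all genes. A match is a string of letters and was not tested as a binding site. Since the genes were picked by their level, these shares are a description.

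Inflammatory chemokine and cytokine genes had small median ratios above 0, while the ratios of Cxcl10 were larger. Cxcl10, the interferon-induced ligand of CXCR3, stood at 109, 57.2, 142 and 280.5 CPM against 3.97, 19.6, 6.95 and 9.91, but few cells carried it: 6, 3, 17 and 9. A single cell gave 18 of its 20 UMIs in donor cells with RvD1, and 66.7%, 23.2% and 52.3% in the other libraries. Of 16 inflammatory chemokine and cytokine genes measured, none was 2-fold different in all 4 libraries, and the medians were 0.24, 0.15, 0.14 and 0.58. Ratios were above 0 in all 4 libraries for 5 genes and below 0 for none, against 9.27% and 14.3% of all 4465 genes. Il1b, a main inflammatory cytokine of neutrophils, stood at 5624, 7068, 4607 and 8663 CPM against 4900.3, 7053, 4699 and 7471. Csf1, a growth factor of monocytes and macrophages, was higher by 0.51, 0.55, 0.65 and 0.69, and Ccl3, a chemokine for CCR1, by 0.23, 0.50, 0.51 and 1.38. None of the 19 measured NF-kB response genes, 18 immediate early genes or 18 glycolysis and hypoxia genes differed by 2-fold in all 4 libraries. Over all 4465 genes, 59 (1.32%) were higher by that measure and 3 (0.0672%) lower.

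Genes for granule proteins, which neutrophil precursors make in the bone marrow, tended to be lower. Of 14 measured, 9 had ratios below 0 in all 4 libraries, against 640 of all 4465 genes (14.3%), 1 was 2-fold lower in each, and the medians were -1.10, -0.30, -0.41 and -0.80. Ngp, a cystatin-like granule protein, stood at 22.2, 14.3, 41.5 and 10.3 CPM against 1814, 962, 93.5 and 106 in other neutrophils. Lyz2, lysozyme, stood at 367, 621, 794 and 563 CPM against 810, 1099, 1317 and 961. Retnlg, a resistin-like protein of mature neutrophils, gave -0.68, -0.42, -0.74 and -0.83. Ltf, lactoferrin, and Chil3, a chitinase-like protein, were much lower in the donor libraries (-4.52 and -6.13 for Ltf, -5.36 and -4.34 for Chil3) but not in vehicle recipient cells (0.20 and -0.06). By UMIs of the 3 genes, Ngp in vehicle donor cells stood at 2211 CPM at 0, 65.4 at 1 to 2 and 272 at 3 to 4 UMIs. In RvD1 donor cells it stood at 1054, 19.4 and 1047 CPM. In recipient cells the steps were 97.1, 79.1 and 51.1 CPM with vehicle and 114, 32.5 and 15.2 with RvD1, lower at each of these steps. The fall did not go on steadily within the interferon-responding cells. At 5 to 9 UMIs Ngp stood at 4.38, 14.3, 17.5 and 17.9 CPM, and at 10 or more at 37.4, 14.3, 64.1 and 4.51. These levels rested on 1 to 35 UMIs.

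Adpgk, an ADP-dependent glucokinase, was also lower in all 4 libraries and rested on 20 UMIs in the interferon-responding cells. Leaving out the vehicle recipient library raised the count of lower genes from 3 to 16, leaving out vehicle donor cells to 7 and leaving out RvD1 recipient cells to 8.

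Genes of neutrophil surface and age had small median ratios. Of 26 measured, none was 2-fold different in all 4 libraries, and the medians were 0.01, 0.02, 0.04 and 0.04. Few genes of any kind passed that limit, 59 of 4465 (1.32%) higher and 3 (0.0672%) lower. Ratios were above 0 in all 4 libraries for 6 of the 26 and below 0 for 2, against 9.27% and 14.3% of all genes. Cxcr4, which draws aged neutrophils to the bone marrow, gave 0.21, 0.14, 0.04 and 0.39. Tlr4, the receptor for lipopolysaccharide, gave 0.20, 0.53, 0.80 and 0.65. Casp8, an initiator of cell death, gave 1.22, 0.90, 1.61 and 1.76. Of 14 measured genes of cell death and the inflammasome, it alone passed 1.5-fold in all 4 libraries. Over all 4465 genes, 84 were at least 1.5-fold higher in all 4 libraries and 12 lower. The survival gene Mcl1 gave 0.09, -0.14, 0.09 and -0.06.

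The summed level of the effector genes rose with the UMIs of the 3 defining genes, on both sides of the threshold. Each step sums many cells, so whether single cells were graded or a mix of high and low was not tested. The 26 effector genes together stood at 3849 CPM in vehicle donor neutrophils with none of the 3 transcripts, 5030.3 with 1 to 2 UMIs, 7493 with 3 to 4, 8903 with 5 to 9 and 15429 with 10 or more. In donor cells with RvD1 the steps were 4743, 7192, 8799, 9994 and 14218 CPM. They were 3551, 5572, 7068, 9501 and 15049 in recipient cells with vehicle and 4458, 7122, 9574, 10058 and 21953 in those with RvD1. The summed level was higher at each step in each library, and cells just inside the threshold lay closer to those just outside than to the cells with 10 or more. Ifih1 followed the same order in vehicle donor cells, at 23.7, 43.3, 127, 350.0 and 553 CPM.

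**Figure D3:**
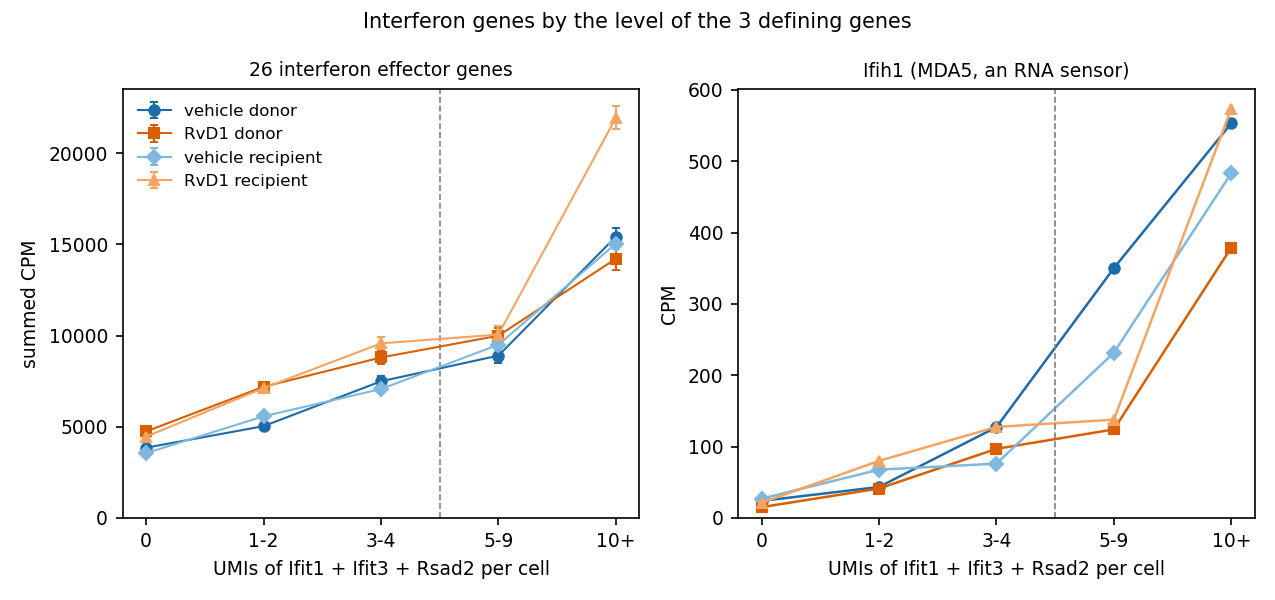
Summed CPM of 26 effector genes (left, bars are 95% Poisson intervals) and CPM of Ifih1 (right) by the UMIs of Ifit1, Ifit3 and Rsad2 per cell (x axis), 1 line per library, with the threshold of 5 dashed. The effector sum is higher at every step in all 4 libraries, from 3551 to 4743 CPM at 0 UMIs to 14218 to 21953 CPM at 10 or more.

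Per cell, the 2 classes overlapped. Effector transcripts made up a median of 1.11%, 1.11%, 1.14% and 1.59% of the UMIs of an interferon-responding cell, against 0.367%, 0.443%, 0.331% and 0.392% in other neutrophils. The lowest interferon-responding cell of each library was at 0.193%, 0.188%, 0.162% and 0.206%, below the median of the others. Conversely, 45, 108, 72 and 36 other neutrophils lay at or above the median of the interferon-responding cells. The highest cell, in the RvD1 recipient library, reached 7.36%.

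**Figure D4:**
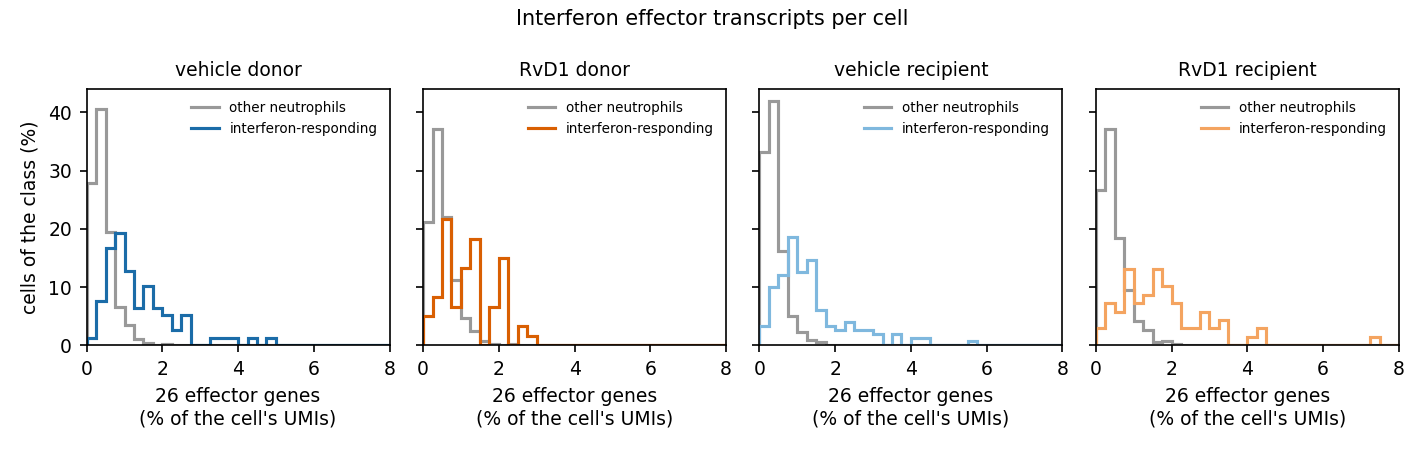
Distribution of effector transcripts per cell (x axis, % of the cell's UMIs in 26 effector genes; y axis, % of the cells of the class) in the 4 libraries, for interferon-responding (colour) and other neutrophils (grey). The distributions are shifted and overlap, with medians of 1.11% to 1.59% against 0.331% to 0.443%.

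Cells with Rsad2 alone had the lower level of effector transcripts. Their effector sum was 8105, 8858, 9413 and 9766 CPM, against 16068, 15043, 14845 and 21358 CPM in cells in which Ifit1 or Ifit3 was detected, 7 of them without Rsad2. The order held in all 4 libraries. Slfn5 stood at 326, 211, 305 and 172 CPM in the first and at 766, 783, 664 and 962 CPM in the second. The median depth of both sets was similar, 4908 to 5968 UMIs and 5238 to 5526.5 UMIs. The sets were split on the rule genes and were not matched for the summed UMIs of those genes, with which the effector sum also rose. The part of those summed UMIs in the difference was not tested.

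Transcripts for interferons themselves were nearly undetected in these cells. Of 21 ligand genes, 18 had 0 UMIs in the 357 cells, among 2294824 UMIs in all. The others were Ifnb1 with 1 UMI, Ifnab with 1 and Ifng with 2. Ifng, the type II interferon, was found mainly in other leukocytes, with 413 UMIs in cells carrying Cd3e and 380 in cells outside all the marker classes.

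Markers of other cells were counted in the interferon-responding neutrophils. Any UMI of 10 monocyte, macrophage, lymphocyte or platelet markers was seen in 18, 8, 30 and 15 of the cells, or 13.3% to 23.1%, against 17.4% to 24.1% of other neutrophils, and was more frequent than in the others in the vehicle donor and RvD1 recipient libraries. The part of these transcripts in the results was not tested. The 9 T cell markers summed to 26.2, 14.3, 21.7 and 30.9 CPM against 27.1, 27.1, 19.8 and 29.0, and 3 of them were at 0 in all 4 libraries. The 12 macrophage markers summed to 80.6, 62.9, 88.6 and 154 CPM against 456, 371, 95.4 and 154, with 5 at 0 in all 4. Chil3, counted above among the granule genes too, gave 331 and 231 CPM of the sums in other donor neutrophils, with vehicle and RvD1. The 7 natural killer cell markers summed to 226, 2.86, 168 and 136 CPM against 196, 121, 84.5 and 117, and in the vehicle recipient library 75.0% of the Gzma UMIs, a cytotoxic granule protease, came from 1 cell. Without the cells that carried any of the 10 markers, 49 genes were at least 2-fold higher in all 4 libraries, 45 of them among the 59.

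Some other leukocytes also reached 5 UMIs of the 3 genes, at depths that differed from those of neutrophils. Among cells with Ly6c2 and Ccr2, markers of classical monocytes, the shares were 1.66%, 0.172%, 3.57% and 0, the last being 0 of 202 cells, with an exact upper limit of 1.81%, at medians of 11369.5 to 15288 UMIs per cell. Cells with Ace, Adgre4 or Cd300e gave 4.50%, 1.82%, 2.99% and 1.70%, with medians of 9923 to 14962 UMIs. Cells with Cd79a, a B cell marker, gave 0.389%, 0.333%, 0.539% and 0.192%, although their median depth, 4779 to 6887.5 UMIs, was close to that of neutrophils. Cells with Cd3e, a T cell marker, gave 2.22%, 0.627%, 4.62% and 1.45%, and their makeup differed from that of neutrophils. Ifit1 gave 64.0%, 50.7%, 70.1% and 59.4% of the 3 genes' UMIs in Cd3e cells, whereas Rsad2 gave 80.9%, 84.2%, 76.8% and 69.0% in all neutrophils.

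Within the interferon-responding cells, RvD1 was compared with vehicle in each origin. A gene was compared when the 2 libraries of each origin held at least 50 of its UMIs, which left 2255 genes. Of these, 15 (0.665%) were at least 2-fold higher with RvD1 in both origins and 74 (3.28%) at least 2-fold lower. At 1.5-fold, the limit for naming a gene, 86 (3.81%) were higher and 208 (9.22%) lower. The limit on summed UMIs favours genes high in the library with more UMIs among these cells, which was the vehicle library in both origins. With both libraries weighted equally in that limit, a choice made after seeing the data, 18 of 2238 genes were higher and 69 lower. Both comparisons set 1 library against 1 library, and the Cell Ranger version differed between them in the same way.

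The interferon genes showed no common direction. The effector list (28 genes compared) had a median RvD1 minus vehicle log2 ratio of -0.26 in donor and 0.24 in recipient cells, against -0.05 and -0.01 over all 2255 genes. None of the 28 was 2-fold higher in both origins, and 1, Tor3a, was 2-fold lower in both. Of the 59 genes higher in interferon-responding cells 57 were compared, with medians of -0.37 and -0.04. None was 2-fold different in both origins, and at 1.5-fold 2 were higher and 5 lower, a share close to that over all genes. In donor cells 45 of the 57 lay below 0, and in recipient cells 31 did. Over all 2255 genes, 1200 lay below 0 in donor cells and 1144 in recipient cells. Among all neutrophils together, the same 57 had medians of -0.37 and -0.23, and among the other neutrophils alone -0.25 and -0.06. Isg15 was higher in both RvD1 libraries, by 0.68 and 1.33, while Nlrc5 was lower, by -2.48 and -1.36. In other neutrophils Isg15 gave 0.25 and 0.84, and Nlrc5 -1.51 and -1.52.

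Among genes higher with RvD1, Wfdc17, a secreted protein with a whey acidic protein domain, went from 716 to 1965 CPM in donor and from 236 to 610 CPM in recipient cells. Cdk8, the kinase of the Mediator complex, went from 1457 to 3569.6 and from 1207 to 2918 CPM. Il18, a cytokine of the interleukin-1 family, gave log2 ratios of 1.22 and 1.53, against 0.53 and 0.98 in other neutrophils. Ap2b1, a subunit of the clathrin adaptor, gave 1.28 and 1.38 against 0.53 and 0.89. Zfp36l1, which promotes decay of mRNA, went from 137 to 309 and from 83.0 to 190.4 CPM. Cdh23, a cadherin, gave 1.35 and 1.75, and Samd4b gave 1.55 and 1.13. Btbd1 went from 42.3 to 97.2 and from 39.6 to 92.6 CPM.

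The lower genes were led by Cc2d2b, Enthd1 and F10. Cc2d2b, a gene of the C2 domain family, went from 262 to 17.2 CPM in donor cells. It had 215 UMIs in vehicle recipient cells and 0 in the 69 RvD1 recipient cells, so the ratio there is a bound: at a floor of 3 UMIs for the library, the log2 ratio is -4.72 or lower. Other neutrophils gave -2.33 and -2.09. Enthd1 had 68 and 5 UMIs in donor and 194 and 5 in recipient cells, log2 ratios of -3.26 and -3.83. F10, coagulation factor X, went from 242 to 14.3 and from 83.0 to 18.0 CPM. Npc1, a lysosomal cholesterol exporter, went from 149 to 37.2 and from 105 to 12.9 CPM. Pdpk1, a kinase upstream of AKT, gave -1.99 and -2.41, and Slc23a2, a vitamin C transporter, -2.21 and -2.87. Eldr and Lhfpl2 gave -2.22 and -2.66, and -2.17 and -2.88. Slfn3, named after its values were seen, was lower in the interferon-responding cells by -2.67 and -1.87 while other neutrophils gave -0.86 and 0.15, and the difference between the classes was not tested.

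**Figure D5:**
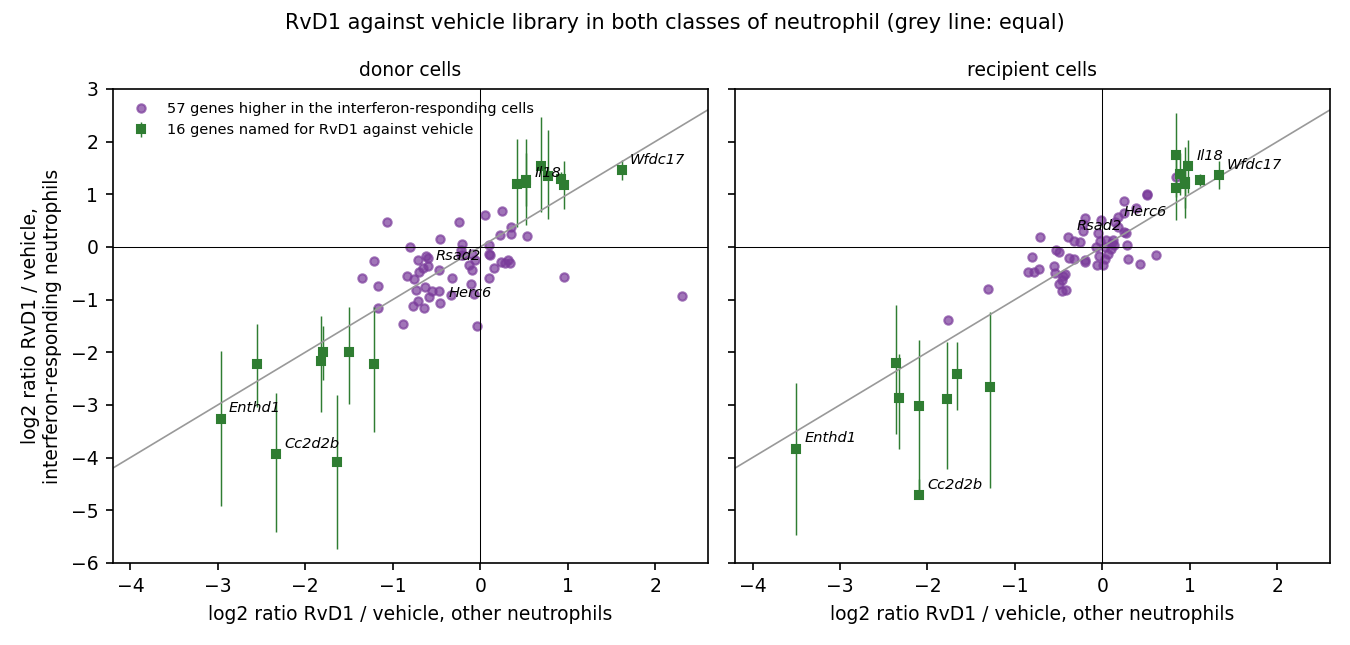
Log2 ratio of RvD1 to vehicle in interferon-responding neutrophils (y axis) against the same ratio in other neutrophils (x axis), donor cells left and recipient cells right, for 57 genes higher in the interferon-responding cells (circles) and 16 genes named for the RvD1 comparison (squares with 95% counting intervals). Of the circles, 45 lie below 0 on the y axis in donor cells and 31 in recipient cells. Of all 2255 genes compared, 1200 and 1144 did. The squares lie on the same side of 0 in both classes. Cc2d2b in recipient cells is drawn at its bound.

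Few genes differed by origin within the interferon-responding cells. Of 2017 genes compared, 2 (0.0992%) were at least 2-fold higher in recipient than in donor cells with both treatments, and 4 (0.198%) at least 2-fold lower, while 25 (1.24%) and 46 (2.28%) passed 1.5-fold. Each of these comparisons lies within 1 Cell Ranger version. Mmp8, a collagenase stored in granules, stood at 74.6 CPM in donor and 505 CPM in recipient cells with vehicle, and at 292 and 893 CPM with RvD1. Other neutrophils showed the same direction, with log2 ratios of 1.91 and 1.24. Scrg1, the other higher gene, went from 4.03 to 89.6 and from 57.2 to 167 CPM. Wfdc17 was lower in recipient cells, by -1.60 and -1.69, as it was in other neutrophils, by -1.39 and -1.68. M6pr, the receptor that sorts lysosomal enzymes, gave -1.03 and -1.66, and Zfp131, a zinc finger protein, went from 88.7 to 44.3 and from 109 to 54.0 CPM. The fourth lower gene, Gm21188, is an unnamed model. The effector list had medians of 0.01 with vehicle and 0.49 with RvD1, so that the recipient cells with RvD1 stood highest for these genes.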

How the data were processed

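The authors deposited unnormalized UMI count matrices of 32285 genes for 4 libraries, made with Cell Ranger 6.1.1 (vehicle) and 7.0.1 (RvD1), per the file headers. Libraries used the 10x 3' v3 kit, per the labels' protocols. The submitters' processing notes name mm10 and Seurat 4.0.0; the sources used here do not say whether introns were counted. No author annotation of cells was used. Cells were chosen by the rule above, and raw counts were summed per library and class with Python 3.11.15 and scaled to CPM by the class total. Doublets were called with Scrublet in scanpy 1.11.5 (0.8% expected per 1000 cells), which marked 1.49% to 3.35% of the cells that passed the filter, and were kept in the main values. Whether doublets were removed before deposit is not stated. Intervals are exact binomial, Newcombe or conditional binomial for ratios; with 0 UMIs a floor of 3 was used. No test was run, as each group has 1 library. Up to 4 genes per list with the largest mean absolute ratio, 15 higher and 10 lower outside the lists, and 8 in each direction per contrast were eligible to be named; other genes were named as examples after their values were seen. The code was tested on simulated data. The cells and gene lists were chosen with earlier results of these data known. Alternatives changed the UMI threshold, depth, doublets, cell filter, other-cell markers, expression filter, scaling and libraries. Some genes counted in the totals are not reported here.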

Additional observations from a re-analysis of the deposited data

Results flagged for a closer look

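In these genes the ratio pointed in opposite directions in 2 comparisons, with each counting interval on its own side of 0. With 1 library per group, none of the differences was tested. For RvD1 minus vehicle among interferon-responding neutrophils, the log2 ratio in donor and then recipient cells was -0.37 and 0.20 for Rsad2, -1.06 and 0.47 for Herc6, and -0.71 and 0.88 for Irf7. The same ratio was -0.93 and 0.98 for Cxcl10, -3.45 and 0.49 for Ccl5, and 0.38 and -1.12 for Cd274. For Ccl5, a chemokine that lymphocytes make in quantity, 1 cell gave 94.3% of the UMIs in RvD1 recipient cells. For recipient minus donor, with vehicle and then RvD1, Ifih1 gave -0.35 and 0.77, and Gpx1, an antioxidant enzyme, gave 0.66 and -1.02.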

How the results depend on the processing

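No paired analysis was possible because the labels give no replicate numbers and each group has 1 library. The RvD1 share of neutrophils stayed below the vehicle share of the same origin under all 7 other definitions. In the order used in the report, the shares were 10.0%, 5.61%, 7.58% and 4.47% at 3 UMIs, and 3.04%, 1.36%, 2.17% and 1.30% at 10 UMIs. A share of 3.62% was found in vehicle recipient cells when 0.1% of UMIs was also required, and thinning gave 4.27% and 3.48% in the RvD1 libraries. The donor difference was -4.42 points at 3 UMIs, and the recipient difference -0.870 points at 10 UMIs. Genes higher in interferon-responding cells numbered 36 at 10 UMIs, 30 after thinning and 20 at an expected count of 20, where fewer genes entered, and 30, 29 and 20 of these were among the 59. Without each library in turn they numbered 60 to 71. Genes lower numbered 1 at 10 UMIs, 1 without cells carrying other markers, 5 and 1 at expected counts of 2 and 20, and 4 to 16 without each library in turn. None of the 3 main lower genes, Ngp and Adpgk among them, was called at 10 UMIs or with the 0.1% rule, under which 3 others were. The mean effector median was 2.07 at 3 UMIs, 2.04 after thinning and 1.68 at an expected count of 20, against 2.27.

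Between RvD1 and vehicle, genes higher numbered 4 at 10 UMIs, 6 with the 0.1% rule, 7 after thinning, 40 at 20 UMIs over the pair and 6 at 100. Of the first 3 counts, 3, 5 and 2 were among the main 15, as were 8 of 15 without cells carrying other markers. Genes lower numbered 129 at 3 UMIs, 42 at 10, 32 after thinning, and 137 and 40 at 20 and 100 UMIs over the pair. Of the first 3, 60, 28 and 20 were among the main 74. Between recipient and donor, genes higher numbered 4 with the 0.1% rule, 5 after thinning, 4 without doublet calls, and 13 and 1 at 20 and 100 UMIs over the pair. Genes lower numbered 2 at 10 UMIs, 1 after thinning, 1 without other markers, 2 when scaled without the top 100 genes, and 23 and 1 at 20 and 100 UMIs. Fewer cells or genes entered under the higher limits; otherwise the cause was not tested. No share difference and no effector median changed direction. Nor did any recomputed gene ratio that had 1 sign in all 4 libraries or, in the contrasts, an interval excluding 0. Changes of direction in other genes were not counted. The 60 to 150 cells per library limit the precision of all ratios among them.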
